A study of Rattus norvegicus with 2 samples.

Results

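The 8 genes described here encode the steps by which a cell turns citrate into long-chain fatty acids and makes them unsaturated: Slc25a1, Acly, Me1, Acaca, Fasn, Elovl5, Scd and Scd2. They were measured in small mesenteric arteries, the first and second order branches that carry blood to the gut. One RNA pool came from 20 rats with prehepatic portal hypertension, produced by partial ligation of the portal vein, and the other from 20 sham-operated control rats. Each pool was hybridised to 1 array of the Affymetrix type RG_U34A, and the labels used here give neither strain nor age. The genes were chosen by their step in the pathway, and all probe sets whose only annotated gene symbol was one of them were taken, which gave 21 of the 7006 probe sets with 1 symbol and 8 of 4736 genes. Slc25a1 and Scd were selected on the opposite ratios of their signals between the pools, and the others with their ratios known, so the values below are a description. There were no replicates, so no difference has a p-value or standard error, and a pool of many animals hides the spread between them.

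In the cytosol, fatty acids are built from acetyl-CoA. Citrate leaves the mitochondrion through the carrier encoded by Slc25a1, ATP citrate lyase (Acly) splits it into acetyl-CoA and oxaloacetate, and malic enzyme (Me1) turns malate derived from that oxaloacetate into pyruvate with release of NADPH. Acetyl-CoA carboxylase (Acaca) makes malonyl-CoA, fatty acid synthase (Fasn) joins the units into palmitate, Elovl5 lengthens mainly polyunsaturated chains, and the desaturases Scd and Scd2 put a double bond into saturated ones. The pathway is most active in liver and fat, and mesenteric arteries lie in fat.

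Acly, Me1 and Scd had higher signals in the portal hypertension pool, by 2.11-fold, 1.89-fold and 2.63-fold on their probe sets bright enough to be read in both pools, while Slc25a1 at the start of the path was lower by a larger factor. Fasn gave contradictory values on its probe sets, Elovl5 was slightly higher, Scd2 differed little, and Acaca was too dim to be read in either pool. Of the 7 genes with a value, 6 had a ratio above 0, against 46.8% of all 3351 genes with a value. A threshold of 1.5-fold was passed upwards by 3 of the 7 (Scd, Acly and Me1), against 3.13% of all genes, and downwards by 1 (Slc25a1), against 5.04% of all genes. At 2-fold, 1 of the 7 was higher and 1 lower, against 0.328% and 0.776% of all genes. Because the genes were chosen with these ratios known, nothing is read from the excess. The median log2 ratio of portal hypertension over sham was 0.37 over the 7 genes and -0.02 over all genes, and the 7 spanned 2.92 log2 units.

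**Figure D1:**
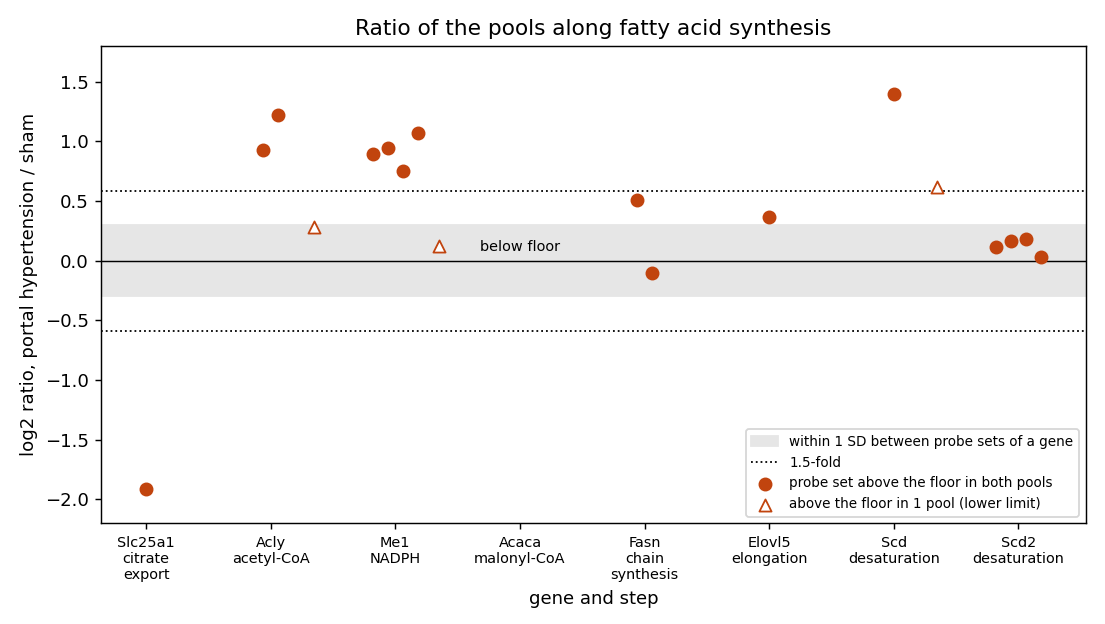
Log2 ratio of portal hypertension over sham (vertical axis) for each probe set of the 8 genes, ordered by step; the grey band is the SD of 0.30 among ratios of a gene's probe sets and the dotted lines mark 1.5-fold. Both filled Acly points, all 4 filled Me1 points and the filled Scd point lie above the upper line, while Slc25a1 lies at -1.91.

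The signal is the array's linear intensity per probe set. A value had to exceed 330.9, the 40th percentile of both arrays, to count as above the floor, and lower values were raised to it before ratios were formed. A probe set above the floor in both pools is called measured, and a probe set above it in 1 pool gives only a lower limit of the ratio. Of the 21 probe sets, 15 were measured, 3 gave a limit and 3 were below the floor in both pools. Of the 15 measured ones, 13 had a higher signal in the portal hypertension pool and 2 a lower one. As a yardstick in place of replicates, the ratios of measured probe sets of the same gene scattered around the gene's mean with an SD of 0.30 on the log2 scale (1801 probe sets of 789 genes). Within each tertile of signal, the scatter was taken only over genes with more than 1 measured probe set in that tertile. Its SD was 0.39 in the lowest tertile (345 probe sets), 0.23 in the middle tertile (283) and 0.19 in the highest tertile (444). Disagreement between probe sets of a gene in different tertiles does not enter these tertile values. The scatter leaves out all differences between animals. Over all measured probe sets, whatever their gene, the ratios had an SD of 0.35. Nearness within 0.30 is thus common among unrelated genes too. A gene's ratio is the median over its probe sets with a measured value or a limit, unless a single probe set is named.

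**Figure D2:**
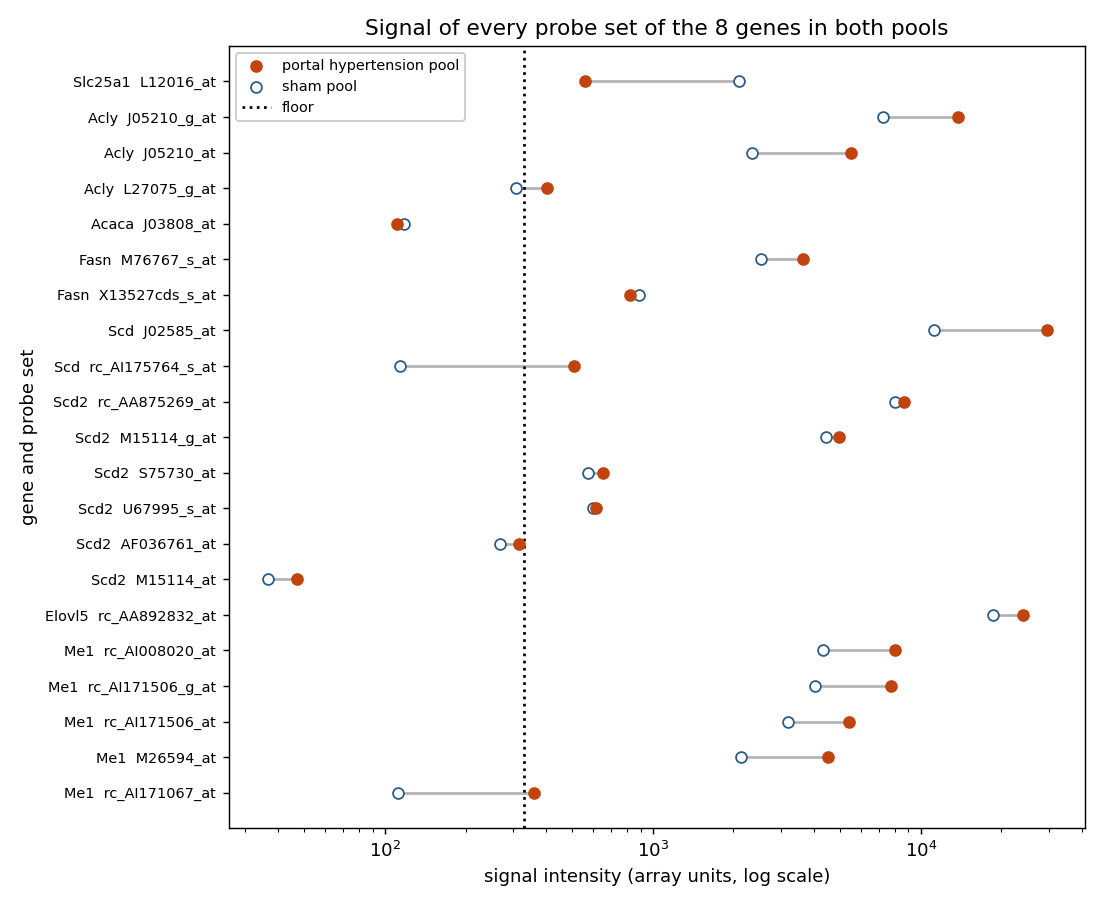
Signal intensity (horizontal log axis, array units) of each of the 21 probe sets in the portal hypertension pool (filled) and the sham pool (open), with the floor of 330.9 as a dotted line. The pair of circles lies furthest apart, among probe sets above the floor in both pools, for Slc25a1, with 557 in the portal hypertension pool and 2100.5 in the sham pool.

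The upstream sequences of the 4 genes with the ratios furthest from 0 are shown here, so that the 3 higher genes can be set beside the lower one. They are the 250 bases before each gene's start in RefSeq's annotation of the rat assembly GRCr8, read 5′ to 3′ on the strand of the gene, with capitals for a CCAAT box (CCAAT) or a GC box (GGGCGG) on either strand.
Acly (chr10:85963632-85963881, minus strand): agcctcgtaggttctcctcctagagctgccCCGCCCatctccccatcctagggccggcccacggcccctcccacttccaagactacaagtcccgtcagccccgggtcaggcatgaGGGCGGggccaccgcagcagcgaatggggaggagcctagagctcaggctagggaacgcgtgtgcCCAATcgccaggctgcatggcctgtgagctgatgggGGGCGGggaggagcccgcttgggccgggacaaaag
Me1 (chr8:96540245-96540494, minus strand): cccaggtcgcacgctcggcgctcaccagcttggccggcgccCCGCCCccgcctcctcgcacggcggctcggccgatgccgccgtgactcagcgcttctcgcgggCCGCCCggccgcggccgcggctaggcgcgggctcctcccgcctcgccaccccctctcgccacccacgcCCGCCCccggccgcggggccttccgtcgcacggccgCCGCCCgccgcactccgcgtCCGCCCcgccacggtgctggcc
Scd (chr1:253231732-253231981, minus strand): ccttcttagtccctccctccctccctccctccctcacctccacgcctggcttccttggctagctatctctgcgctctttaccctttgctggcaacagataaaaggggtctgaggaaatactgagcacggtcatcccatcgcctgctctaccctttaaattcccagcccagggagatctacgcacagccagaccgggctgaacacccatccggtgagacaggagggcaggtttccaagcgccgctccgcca
Slc25a1 (chr11:96559804-96560053, plus strand): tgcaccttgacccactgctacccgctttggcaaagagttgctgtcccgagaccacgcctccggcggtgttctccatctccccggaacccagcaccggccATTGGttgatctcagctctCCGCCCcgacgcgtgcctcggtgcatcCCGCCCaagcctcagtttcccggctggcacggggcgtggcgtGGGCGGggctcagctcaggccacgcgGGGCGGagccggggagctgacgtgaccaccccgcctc
Sequences were found for 6 of the 8 genes, and Acaca and Fasn had no entry in the table. The GC box was present in 3 of the 6, with 5 copies in Me1, 4 in Slc25a1 and 3 in Acly, and 30.5% of all 33469 promoters of the same length held it. The CCAAT box was present in 4 of the 6, Slc25a1, Acly, Scd2 and Elovl5, and in 34% of all promoters. Therefore Acly, which was higher, and Slc25a1, which was lower, both held both motifs, and Scd held neither. The E-box CACGTG was found in Elovl5 alone, against 5.59% of all promoters. The sterol regulatory element TCACNCCAC, a site of the lipogenic factors of the SREBP family, was in 0 of the 6 windows and in 0.974% of all promoters. A match is only a run of letters, and its absence concerns this window alone. The GC content of the 6 windows lay between 58.8% in Scd and 83.2% in Me1.

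Citrate export was read by a single probe set. Slc25a1, the mitochondrial citrate carrier, had a signal of 557 in the portal hypertension pool, against 2100.5 in the sham pool (L12016_at). The sham signal was thus 3.77 times as high, a log2 ratio of -1.91, and only 1 of the 3351 genes had a lower ratio. The portal hypertension signal lay at 1.68 times the floor, and the probe set belongs to the lowest tertile of signal, where probe sets of 1 gene scatter most. A floor at the 60th percentile gave a log2 ratio of -1.24. No other probe set on the array was annotated to Slc25a1, so the ratio has no check within the gene. Such a check was possible for other genes. Of 14 probe sets at least 2-fold lower whose gene had other measured probe sets, 1 had all the others at least 1.5-fold lower too and 7 had another with a ratio at or above 0. Of 10 such probe sets at least 2-fold higher, all others were at least 1.5-fold higher in 4 and another had a ratio at or below 0 in 3. Those 4 include Acly, Me1 and Acsl1, which are genes of the lists described here, chosen with earlier results known. The 4 are therefore not an independent background for Acly and Me1. This count was chosen after the values were seen.

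The step that makes cytosolic acetyl-CoA was higher on each of its probe sets. Acly had signals of 13822.1 on J05210_g_at and 5490.5 on J05210_at in the portal hypertension pool, against 7250.2 and 2354 in the sham pool. The log2 ratios were 0.93 and 1.22, or 1.91-fold and 2.33-fold, and both probe sets read the same deposited sequence, so they do not check each other fully. The third probe set, L27075_g_at, was dim, with 402.7 in the portal hypertension pool and 308.5, below the floor, in the sham pool, which gives a limit of at least 1.22-fold. Over all 3 the gene had a log2 ratio of 0.93 and ranked 16 from the top of 3351 genes.

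Malic enzyme, which supplies NADPH for chain synthesis, had the most probe sets on the array among the 3 higher genes. All of them were higher with portal hypertension, as were those of Acly and Scd. Me1 had signals of 8025.4, 7719.1, 5378 and 4498.9 in the portal hypertension pool on its 4 measured probe sets, in the order rc_AI008020_at, rc_AI171506_g_at, rc_AI171506_at and M26594_at. The same probe sets gave 4316.7, 4018.1, 3199.1 and 2140.9 in the sham pool. All 4 were therefore higher with portal hypertension, with log2 ratios of 0.89, 0.94, 0.75 and 1.07. Their SD was 0.13, below the yardstick of 0.30, and they come from 3 deposited sequences. The fifth probe set, rc_AI171067_at, had 361.2 in the portal hypertension pool, just above the floor, and 112.2 in the sham pool, a limit of at least 1.09-fold. Me1 ranked 23 from the top, with a log2 ratio of 0.89 over all 5.

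The enzymes that build the chain itself did not give a clear difference. Acaca, the carboxylase that commits acetyl-CoA to fatty acid synthesis, had signals of 110.7 in the portal hypertension pool and 117.9 in the sham pool on its only probe set, at 0.335 and 0.356 times the floor, so no ratio is given. Fasn had 3620.4 in the portal hypertension pool and 2538.5 in the sham pool on M76767_s_at, a log2 ratio of 0.51. On X13527cds_s_at it had 825.1 in the portal hypertension pool and 888.1 in the sham pool, a log2 ratio of -0.11. The brighter probe set was higher and the dimmer one slightly lower, and their SD of 0.44 exceeded the yardstick of 0.30. The median of 0.20 for Fasn put it at rank 709 of 3351.

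Elongation showed a small difference at a high signal. Elovl5, the elongase of polyunsaturated fatty acids, had 24049 in the portal hypertension pool and 18648.8 in the sham pool on its single probe set. The log2 ratio of 0.37, or 1.29-fold, lay outside the SD of 0.19 for probe sets of 1 gene in the highest tertile of signal and below the 1.5-fold threshold. It ranked 326 from the top.

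The desaturase genes differed from each other. Scd, which makes oleate and palmitoleate and is the main form in adult liver and fat of rodents, had a signal of 29482.1 in the portal hypertension pool, against 11225.1 in the sham pool, on J02585_at. This was 2.63-fold, and its mean signal lay in the highest tertile. Its other probe set, rc_AI175764_s_at, had 508.3 in the portal hypertension pool and 113.4, below the floor, in the sham pool, a limit of at least 1.54-fold. Both probe sets of Scd were thus higher with portal hypertension. The median of the value and the limit was a log2 ratio of 1.01, rank 11 of 3351, and it was 1.39 with the measured probe set alone and 1.78 with the floor at the 20th percentile. Scd thus passed 2-fold however the dim probe set was counted, but not when the arrays were centred on the spike-in controls, which gave 0.79, or when it was set against the adipocyte markers, which gave 0.67. In contrast, Scd2, the form prominent in brain, had signals of 8684.2, 4945.7, 650.1 and 613.5 in the portal hypertension pool on its 4 measured probe sets. The sham pool gave 8013.4, 4420.8, 572.8 and 600.5 on the same ones. The log2 ratios were 0.12, 0.16, 0.18 and 0.031, all above 0 and all smaller than the yardstick of 0.30. The remaining 2 probe sets of Scd2 were below the floor in both pools.

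Scd and Scd2 lie close to each other on rat chromosome 1, with Scd4 as the only gene listed between them and Scd3 on the other side of Scd2. A probe set annotated to all 4 of these genes was left out by the rule on single symbols. It had 157.1 in the portal hypertension pool and 127.7 in the sham pool, below the floor in both. No probe set was annotated to Scd3 or Scd4 alone, and whether their transcripts add to the signals of Scd or Scd2 was not tested.

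Among the 7 genes with a value, Acly, Me1 and Scd lay between 0.89 and 1.01, closer to each other than the SD of 0.30, but that nearness rests on counting the limit of the dim Scd probe set. With measured probe sets only, Scd at 1.39 lay more than that SD above Acly at 1.08 and Me1 at 0.92. Elovl5, Fasn and Scd2, at 0.37, 0.20 and 0.14, also lay within that SD of each other. Such nearness says little, as the SD over all measured probe sets was 0.35. The nearest values on either side of the 1.5-fold threshold (log2 0.58) were those of Me1 at 0.89 and Elovl5 at 0.37. A measure of likeness over 2 pools is no more than the nearness of a single ratio. Among the 1215 genes with all probe sets measured and at least the median signal, the ratios nearest to that of Scd were those of Apoe, a lipid carrier, with 0.97, and Postn, a matrix protein, with 0.93. Nearest to Slc25a1 were Ate1, an arginyltransferase, with -1.32 and Adk, the adenosine kinase, with -1.19, both well above its -1.91. Pawr, an apoptosis regulator gene of lower signal named after its value was seen, had 568.7 in the portal hypertension pool and 2058.3 in the sham pool, a log2 ratio of -1.86.

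**Figure D3:**
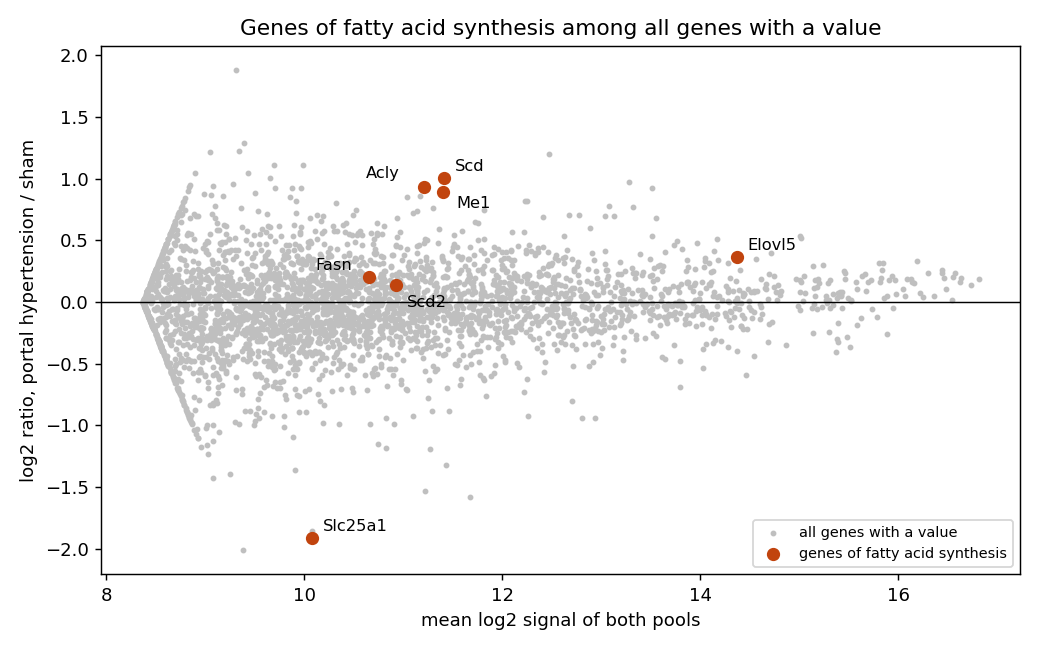
Log2 ratio of portal hypertension over sham (vertical axis) against the mean log2 signal of both pools (horizontal axis) for 3351 genes (grey), with the 7 genes of fatty acid synthesis that have a value in orange. Scd, Acly and Me1 lie at the upper edge of the cloud, at 0.89 to 1.01 with limits counted, and Slc25a1 lies near its lower end, at -1.91.

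Genes around the pathway were taken from lists and counted whether or not they differed. Over all genes with a value, 46.8% were above 0, 3.13% at least 1.5-fold higher and 5.04% lower, and the counts below stand beside these shares. The reactions that supply NADPH were represented by 3 genes, all above 0, with 2 at least 1.5-fold higher and a median log2 ratio of 0.74, against -0.02 over all genes. Taldo1, the transaldolase of the pentose phosphate pathway, had 13359.1 in the portal hypertension pool and 7837.8 in the sham pool. Tkt, the transketolase of the same pathway, had 4375.3 and 825.4 on its probe sets in the portal hypertension pool, against 2416 and 533.4 in the sham pool, or log2 ratios of 0.86 and 0.63. Nnt, which makes NADPH inside mitochondria, had 0.22.

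The list on citrate supply also holds genes that use citrate or its products, and related carriers. Of its 13 genes, 10 were above 0 (46.8% of all genes), 1 was at least 1.5-fold higher (3.13%) and 0 lower (5.04%), and the median was 0.06. Aco1, the cytosolic aconitase, which converts citrate to isocitrate, had 4230.7 in the portal hypertension pool and 2702.9 in the sham pool, a log2 ratio of 0.65. The bright enzymes of this list differed little, with 0.15 for the cytosolic malate dehydrogenase Mdh1 and 0.0087 for Pdha1, a subunit of pyruvate dehydrogenase. Citrate synthase (Cs) had -0.14. Pc, the pyruvate carboxylase that makes mitochondrial oxaloacetate, had 646.1 and 409.3 on its probe sets in the portal hypertension pool, against 355.4 and 232.4 in the sham pool, the last below the floor. Its gene value of 0.58 lay just short of 1.5-fold. The dicarboxylate and oxoglutarate carriers, of the same family as Slc25a1, did not share its ratio, with -0.24 for Slc25a10 and 0.0014 for Slc25a11. Cs, Pc and both carriers were named after their values were seen.

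The list on acetyl-CoA and malonyl-CoA had 6 genes with a value, 2 above 0 and 0 at least 1.5-fold apart, with a median of -0.19. Dbi, which binds acyl-CoA, had 0.42, and Ndufab1, the mitochondrial acyl carrier protein, had -0.25. Acacb, which encodes the carboxylase at the mitochondrial surface, did not reach the floor, with signals of 78.8 in the portal hypertension pool and 115.5 in the sham pool. Cpt1a, whose product is inhibited by malonyl-CoA, had -0.34. Acacb and Cpt1a were named after their values were seen. Elongation and desaturation were otherwise covered by 4 genes with a value, 3 above 0 and none at least 1.5-fold apart, with a median of 0.14. The gene below 0, Cyb5r3, named after its value was seen, had -0.29 over 5 measured probe sets, which ran from -2.39 to 0.06. Its lowest, X65190mRNA_s_at, had 390 in the portal hypertension pool and 2050.1 in the sham pool. With the mean over probe sets, 1 of the 4 genes was at least 1.5-fold lower. Hacd3 and Hsd17b12, which carry out later steps of the elongation cycle, had 0.42 and 0.13. No probe set was annotated to Elovl6 or to Fads1 and Fads2 alone.

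Of 5 genes of acyl-CoA synthesis and esterification, 1 was at least 1.5-fold higher (3.13% of all genes) and 0 lower (5.04%), with a median of -0.0037. This was Acsl1, an acyl-CoA synthetase of fat, liver and heart, which was higher on all 4 probe sets, with log2 ratios from 0.69 to 1.37. Acsl5 and Acsl4 had -0.062 and -0.0037. Of 16 regulators of lipogenesis, 7 (43.75%) were above 0, near the 46.8% of all genes. At least 1.5-fold higher were 2 and lower 1, against 3.13% and 5.04% of all genes, and the median was -0.06. Insig1, which holds back SREBP processing and is itself an SREBP target, had 3408.1 and 3058.4 in the portal hypertension pool, against 2500.8 and 1840.1 in the sham pool. Its log2 ratios were 0.45 and 0.73. Nr1h3, the liver X receptor alpha gene, had 1061.8 in the portal hypertension pool and 690.8 in the sham pool, a log2 ratio of 0.62, while Nr1h2, the beta form, had -0.05 on its measured probe set. Prkag1, a subunit of AMP-activated kinase, had -0.23. The lower regulator, named after its value was seen, was Rxrb, with 200.8, below the floor, in the portal hypertension pool and 536.7 in the sham pool, at least 1.62-fold lower. Srebf1, which encodes the lipogenic SREBP, did not reach the floor either, with 146.3 in the portal hypertension pool and 197.9 in the sham pool.

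**Figure D4:**
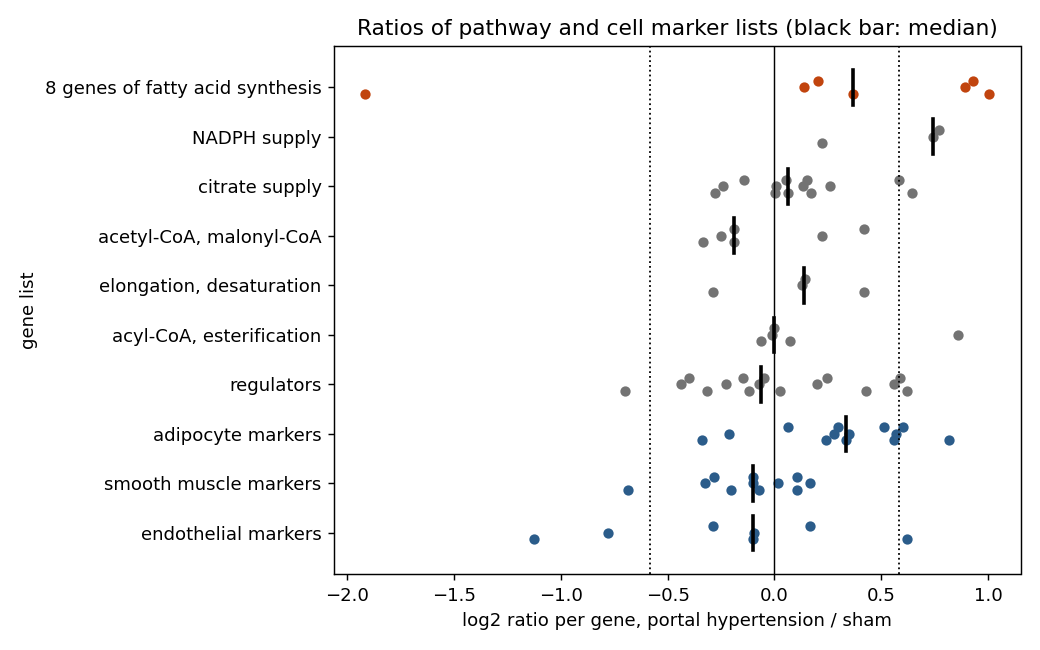
Log2 ratio of portal hypertension over sham per gene (horizontal axis) for the 8 genes (7 with a value), 6 lists of related genes and 3 lists of cell markers; black bars are medians and dotted lines mark 1.5-fold. Adipocyte markers have a median of 0.34 and none reaches the values of Acly, Me1 and Scd, each gene being shown as the median over its probe sets.

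Fat cells surround mesenteric arteries and express this pathway strongly, and most adipocyte markers above the floor were higher in the portal hypertension pool, as Scd, Acly and Me1 were. Of 25 listed markers 19 were on the array, 13 had a value and 6 were below the floor in both pools. Of the 13, 11 were above 0 (46.8% of all genes), 2 at least 1.5-fold higher (3.13%) and 0 lower (5.04%), with a median log2 ratio of 0.34. The summed signal of their 19 measured probe sets was 147805 in the portal hypertension pool and 118594 in the sham pool. With the floor at the 20th percentile all 19 had a value, and the median was 0.088, with 2 at least 1.5-fold higher and 1 lower. Of the listed markers, Fabp4, Lpl and Cfd had the highest mean signals, with log2 ratios of 0.51, 0.34 and 0.28. The leptin gene Lep had 9948.7 in the portal hypertension pool and 11521.8 in the sham pool on its brightest probe set, with a gene value of -0.21, and Adrb3, the beta adrenergic receptor of fat cells, had -0.34. Plin1, Cebpa, Gpd1, Pck1, Mgll and Ucp1 were below the floor. The list shares Pparg, Gpd1 and Dgat2 with those above, and no probe set was annotated to Dgat2 alone. As medians over probe sets, Acly, Me1 and Scd each had a ratio above all 13 markers, of which the highest was G0s2 at 0.82. With the mean over probe sets, Acly at 0.81 and Me1 at 0.76 lay below G0s2, which has 1 probe set. Relative to the marker median of 0.34, which depends on the floor, the log2 ratios of Acly, Me1 and Scd were 0.59, 0.56 and 0.67. Elovl5, Fasn and Scd2 came to 0.031, -0.13 and -0.20 and Slc25a1 to -2.25. The part of fat cells in these differences was not tested beyond these values, and in bulk RNA a change in the number of cells of a type and a change in RNA per cell cannot be told apart.

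Markers of the vessel wall were read in both pools. All 11 smooth muscle markers on the array had a value, 4 above and 7 below 0, with a median log2 ratio of -0.10. They ran from -0.68 for Kcnmb1, a subunit of a calcium-activated potassium channel and the only one at least 1.5-fold lower, to 0.17 for Tagln, an actin-binding protein gene. Acta2, smooth muscle actin, had 41128.5 in the portal hypertension pool and 51465.7 in the sham pool on its brightest probe set. Of the 10 endothelial markers on the array 7 had a value, 2 above and 5 below 0, also with a median of -0.10. Icam2, an adhesion gene, and Nos3, the endothelial nitric oxide synthase, were at least 1.5-fold lower, with -1.13 and -0.78, the measured probe sets of Nos3 running from -1.20 to 0.25. Edn1, the endothelin gene, was at least 1.5-fold higher, with 0.62. Over all genes, 46.8% were above 0, 3.13% at least 1.5-fold higher and 5.04% lower. The wall markers were named after their values were seen, and both medians lay so near 0 that their signs turned, to 0.018 for smooth muscle without suffixed probe sets and to 0.034 for endothelium with the floor at the 20th percentile. Markers of liver, gut epithelium and pancreas had medians of 0.08, -0.37 and -0.21 over 9, 3 and 4 genes with a value, and those of Schwann cells 0.13 over 4. With the floor at the 20th percentile, gut epithelium turned to 0.020 over 8 genes and Schwann cells to -0.15 over 6. The liver markers turned to -0.20 when the arrays were centred on the spike-in controls. The amount of labelled RNA noted for the arrays, with a question mark, was 12.5 µg for the portal hypertension array and 17 µg for the sham array, and the arrays were washed on different fluidics modules, so neither can be told apart from the operation. The 9 spike-in controls had a mean log2 ratio of 0.28. Over all genes 105 were at least 1.5-fold higher and 169 lower, a split that was 151 and 139 after quantile normalization and 32 and 524 after centring on the spike-in controls. Centring on the spike-in controls moved the median of all genes to -0.29 and turned Fasn and Scd2 to -0.08 and -0.14, while Acly, Me1 and Scd stayed at least 1.5-fold higher and Slc25a1 at least 1.5-fold lower. Neither quantile normalization, removal of a loess trend nor centring on the median turned the sign of one of the 7 genes with a value, while the values relative to the adipocyte marker median were below 0 for Fasn and Scd2 too. With the arrays centred on the spike-in controls, 0 genes of the 6 lists of related genes were at least 1.5-fold higher. The NADPH list then had a median of 0.46 and the adipocyte markers one of 0.056, while the medians of the citrate supply list and of elongation and desaturation turned to -0.22 and -0.14. The medians of the regulators and of the acyl-CoA list lay so near 0 that their signs turned with other settings too, to 0.15 with a floor at the 60th percentile and to 0.049 after quantile normalization.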

How the data were processed

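RNA from small mesenteric arteries was pooled over 20 rats per group, and each pool was hybridised to 1 RG_U34A array, per the file headers. The values deposited by the authors are linear signal intensities, 1 per probe set and array. Which software, background correction and scaling were used is not given in the sources used here, but the means without the lowest and highest 2% were 2504.38 and 2504.33 in the portal hypertension and sham pools, so the values were used as deposited. Chip type, RNA amount and fluidics module come from the experiment sheets.

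The 59 control probe sets were set apart. Of 8799 probe sets, 7018 had 1 symbol in the platform annotation, 12 of them controls, 308 had several and 1473 had none. All 8 symbols matched the RefSeq gene table of GRCr8. Intensities were floored at the 40th percentile of both arrays, and log2 ratios were computed with pandas 2.3.3 (loess: statsmodels 0.14.6). The arithmetic alone was tested, with known ratios put without noise on bright genes of the sham values. That test does not cover genes near the floor or probe sets that disagree. A single array per group allows no test, and precision is limited by the number of arrays.

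Every probe set of the 8 genes is described. From each list of related genes, those at least 1.5-fold apart with a measured probe set and up to 2 more of highest level were named, and for Scd and Slc25a1 the 2 genes nearest in ratio. The genes and lists were chosen with earlier results of these data known. Alternatives were 2 other floors, 4 scalings, 2 other summaries over probe sets, the omission of probe sets with a name suffix other than _at alone, and the use of measured probe sets only.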

Additional observations from a re-analysis of the deposited data

How the results depend on the processing

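The counts of genes at least 1.5-fold higher (3) and lower (1), and of genes at least 2-fold lower (1), were the same under all 10 alternatives, and no call changed direction. The log2 ratio ranged from 0.65 to 1.22 for Acly, from 0.64 to 0.94 for Me1, from 0.09 to 0.39 for Elovl5 and from -0.14 to 0.16 for Scd2, in each case within the SD of 0.30. Scd had 1.78 when the floor was set at the 20th percentile and 1.39 when it was set at the 60th, with measured probe sets only, with the probe set of the highest level and with suffixed probe sets left out, because its dim probe set then has another limit or is left out. Slc25a1 had -1.24 at the 60th percentile floor, which lies above its portal hypertension signal. Fasn had 0.51 with that floor and with the probe set of the highest level, which leave 1 of its probe sets, and no value without suffixed probe sets. Acaca would reach the floor only if that were set at the 20th percentile, where its log2 ratio is -0.09. The count of genes at least 2-fold higher was 2 at the 60th percentile floor, with measured probe sets only and without suffixed probe sets, and 0 when centred on the spike-in controls. Relative to the adipocyte marker median, an alternative chosen after seeing the data, that count was 0 and the one at 1.5-fold was 2, and the log2 ratios were 0.67 for Scd, 0.59 for Acly, 0.56 for Me1, 0.031 for Elovl5, -0.13 for Fasn, -0.20 for Scd2 and -2.25 for Slc25a1. Leaving out a replicate was not possible with 1 array per group. No paired analysis was possible because each group has 1 array. Signals near the floor limit the ratios of Slc25a1, of the dimmer Fasn probe set and of all 3 probe sets that give a limit only.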
